A study of Homo sapiens with 21 samples.

Results

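Intronic circular RNAs are RNA circles whose back-splice junction, the join between a downstream and an upstream end, lies within what the annotation gives as an intron. In FaDu cells 1029 such junctions of 827 host genes were recorded, of 8714 circRNA junctions in all. They were taken as the rows that the authors' deposited sheets class as intronic, without the 17 such rows on the mitochondrial chromosome. FaDu is an established line from a hypopharyngeal squamous cell carcinoma. The study knocked down IGF2BP3, an RNA-binding protein that reads the m6A methyl mark on RNA, and looked for circRNAs it regulates. The groups used here are FaDu cells with IGF2BP3 knockdown under the name sh3-1, FaDu cells with IGF2BP3 knockdown under the name sh3-2, and the controls named shCtr, which the labels give as wild type and blank control. Each has 3 circRNA-seq libraries, named A, B and C, from total RNA depleted of ribosomal RNA and read as 150 bp pairs. The labels do not say that the libraries of a group are separate cultures, so a p-value here covers only variation among these libraries, possibly technical in origin. They name no step that removes linear RNA and do not say whether each knockdown line is 1 clone.

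Most circles in cells join exons. Intron circles are best known as lariats: splicing releases each intron as a looped RNA, which the debranching enzyme DBR1 normally opens for decay, and a lariat that escapes it can persist as a ring. Such rings have been described mostly in the nucleus, some at the gene that made them. A junction that is annotated as intronic can also come from a circle that uses unannotated exons, since the class depends on the transcript model.

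The 1029 intronic circles held 3483 junction reads, 7.74% of the 8673 non-mitochondrial circRNAs' reads. Junction reads per library outside the mitochondrion were 4995, 5832 and 5673 for sh3-1, 3833, 3731 and 4118 for sh3-2, and 5495, 5535 and 5811 for shCtr. A count of 0 in a library therefore leaves room for a share of at most 0.0514% in the deepest library and 0.0804% in the shallowest (3 counts of the total, counting error only). IGF2BP3 circles of any class, none of them intronic, had 5, 1 and 0 reads with sh3-1, 3, 6 and 0 with sh3-2, and 6, 2 and 0 in shCtr, so these counts do not check the knockdown. Circles from the host lists of fibroblast, immune and endothelial genes held 7, 0 and 0 reads over all classes and libraries. No marker keratin of squamous cells hosted a circle, so the labelled cell type could not be checked from these sheets.

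Library pairs stood apart within each hairpin group. Libraries A and B of sh3-1 shared 59 intronic circles that no other library held, and libraries B and C of sh3-2 shared 28. The other 34 pairs shared 0 to 4 in this way. Of the intronic circles found in either library of a pair, 31.9% were in both for sh3-1 A and B and 20.6% for sh3-2 B and C, against 3.02% to 7.45% in other pairs. The labels give no batch that names these pairs. Exonic circles show the same pairs apart, with 237 held only by sh3-1 A and B and 125 only by sh3-2 B and C, against 9 to 67 in other pairs. Of exonic circles in either library, 36.7% were in both for sh3-1 A and B and 29.3% for sh3-2 B and C, against 13.3 to 20.6% in other pairs. Group values that include the circles of these pairs are therefore also given without them where they change.

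**Figure D1:**
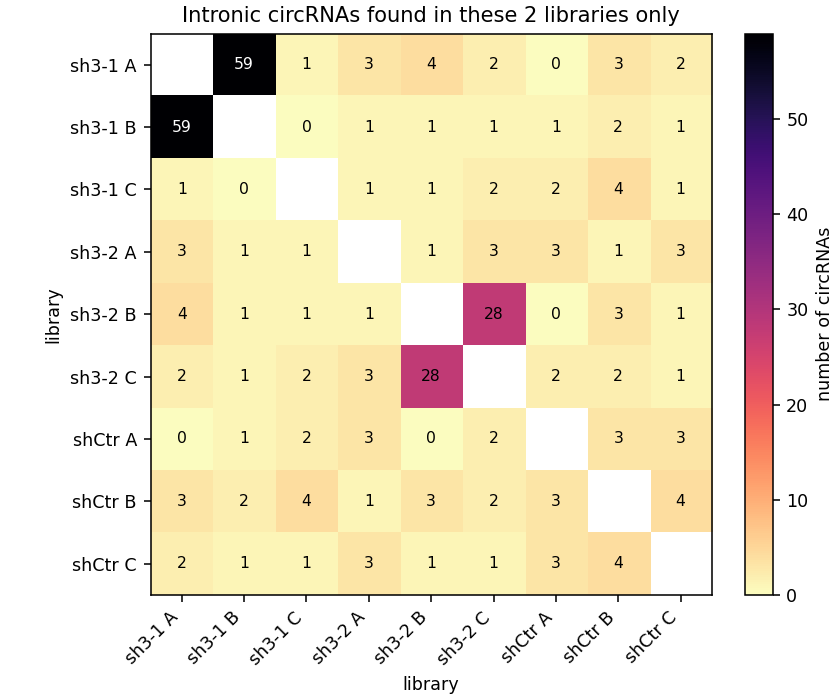
Number of intronic circRNAs found in exactly the 2 libraries of each row and column (both axes list the 9 libraries, colour and digits give the number). The pair sh3-1 A and B holds 59 and the pair sh3-2 B and C holds 28, while every other pair holds 0 to 4.

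Intronic circles had shorter genomic spans and were rarer and less often catalogued than exonic circles, the class of 6093 junctions that join annotated exons. Their genomic span had a median of 1104 bases (quartiles 346 and 4228, range 150 to 91528), against 10728 bases for exonic circles. Of the intronic circles 302 (29.3%) spanned up to 400 bases, 333 spanned 401 to 2000 and 394 (38.3%) more than 2000. Only 2.05% of exonic circles spanned up to 400 bases and 86.3% spanned more than 2000. The genomic span of an exonic circle can include introns, and the lengths of the RNA circles themselves were not compared. A circBase ID, which marks a circle already in that catalogue, was given for 90 intronic circles (8.75%) and for 74.0% of exonic ones. Among intronic circles it was given for 2.65% of those up to 400 bases, 6.01% of the middle range and 15.7% of those above 2000. The span classes were chosen after the spans were seen.

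**Figure D2:**
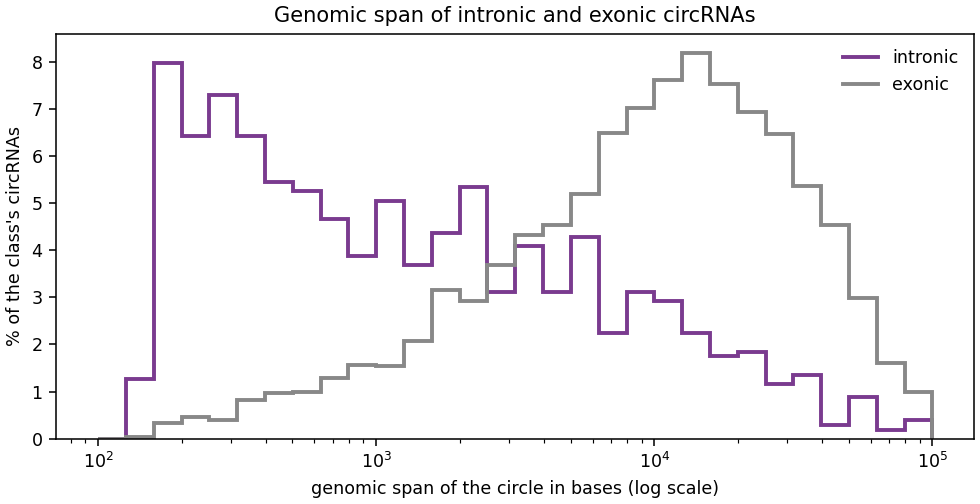
Genomic span of the 1029 intronic and 6093 exonic circRNAs (x axis, bases, log scale) as a percent of each class (y axis). The intronic curve is highest among short spans, with a median of 1104 bases, and the exonic curve peaks just above the exonic median of 10728 bases.

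These differences were tested within libraries, where intronic and exonic circles share one preparation and depth. The class definition itself bears on span, so the span test describes the classes and is no independent support. The median span of detected circles was 1157 ± 232 bases for intronic and 10176 ± 430 bases for exonic circles (SD, n = 9 libraries), lower for intronic in 9 of 9 libraries (exact two-sided sign-flip permutation p = 0.00391, the smallest possible, adjusted p = 0.00469 over 6 measures). Reads per detected circle were 2.496 ± 0.274 for intronic and 2.93 ± 0.385 for exonic circles, also lower in 9 of 9 libraries (exact permutation, adjusted p = 0.00469). Detected circles with a circBase ID made up 12.1 ± 2.00% of intronic and 83.2 ± 1.02% of exonic ones (9 of 9 libraries lower, exact permutation, adjusted p = 0.00469).

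Intronic circles were mostly private to a library. Of the circles detected in a library, 41.6 ± 13.4% of intronic ones were also seen in another library, against 72.6 ± 6.72% of exonic ones (9 of 9 libraries lower, exact permutation, adjusted p = 0.00469). In the 5 libraries outside the pairs that share circles, the values were 28.0 to 34.5% for intronic and 64.5 to 70.0% for exonic circles. Over the whole set 807 of 1029 intronic circles (78.4%) had reads in 1 library only, 150 in 2 libraries, 37 in 3 and 35 in 4 or more. Reads in all 9 libraries were found for 2 intronic and 72 exonic circles. The sheets list no circle with fewer than 2 reads in its best library. A circle private to a library therefore has at least 2 reads, and with more private circles fewer have 1 read: 16.6 ± 5.96% of detected intronic circles had 1 read, against 25.2 ± 7.45% of exonic ones (9 of 9 libraries lower, exact permutation, adjusted p = 0.00469). Strand did not pass the test, with 49.0 ± 2.76% of intronic and 51.3 ± 1.33% of exonic circles on the plus strand (lower in 6 of 9 libraries, exact permutation, adjusted p = 0.109).

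The circle of LINC01004, a long noncoding RNA gene, was the most abundant intronic circle, at chr7:104645765-104649656 on the minus strand (hg19, 3892 bases). It had 14, 8 and 5 reads in the sh3-1 libraries, 20, 8 and 3 in the sh3-2 libraries and 19, 11 and 15 in the shCtr libraries. The counts of the hairpin libraries spread widely and overlap those of the controls. Its 103 reads were 2.96% of all intronic reads, and the next circle had 31. It was also the one intronic circle with enough reads for the fits across all circRNAs, and the other 1028 members did not pass that filter.

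Its log2 fold change by edgeR's quasi-likelihood test was −0.80 (SE 0.55) for sh3-1 against shCtr, with an adjusted p of 0.838, and −0.17 (SE 0.58) for sh3-2 against shCtr, with an adjusted p of 0.873. For sh3-2 against sh3-1 it was 0.65 (SE 0.52, edgeR adjusted p 0.709). Without library sh3-1 C the value for sh3-1 was −0.17, and without sh3-1 A it was −1.37. The sign for sh3-2 against shCtr turned to 0.33 without sh3-2 C and to 0.17 without shCtr A, and that for sh3-2 against sh3-1 to −0.32 without sh3-2 A. The 2 hairpin comparisons share the 3 control libraries.

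In those fits 0 of 33 circRNAs of all classes were called for sh3-1 against shCtr (0%), 0 of 24 for sh3-2 against shCtr (0%) and 0 of 40 for sh3-2 against sh3-1 (0%), at an adjusted p under 0.05 by edgeR. At an unadjusted p under 0.05 edgeR gave 2, 1 and 4, and DESeq2 gave 1, 1 and 3 with 0 called after adjustment. None of these was intronic. With a looser filter of at least 6 reads over the fit in at least 2 libraries, 49, 29 and 72 intronic circles entered, and edgeR called 0 of them in each comparison, against 0%, 0.112% and 0% of the 1151, 890 and 1597 circRNAs of all classes tested. At an unadjusted p under 0.05 edgeR gave 6 of 49 intronic circles (12.2%) for sh3-1 against shCtr, with 5.56% over all classes. For sh3-2 against shCtr it gave 3 of 29 (10.3%, with 8.99% over all classes) and for sh3-2 against sh3-1 3 of 72 (4.17%, with 5.57%). A circle can pass this filter through the reads of 1 group alone, so these shares are no support for a difference.

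After LINC01004 came a circle of XLOC_010031 at chr11:65268322-65268664 (plus strand, 343 bases, 31 reads), with 1, 6 and 7 reads for sh3-1, 5, 2 and 1 for sh3-2 and 3, 1 and 5 for shCtr. It and the LINC01004 circle were the 2 intronic circles with reads in all 9 libraries. All 3 groups overlap. XLOC_010031 is a transcript model without a gene name, and this circle lies inside the span of a circle that the authors assign to MALAT1, an abundant nuclear long noncoding RNA, on the same strand. Its 6 intronic circles held 60 reads. Summed over them the libraries had 5, 9 and 11 reads with sh3-1 (3, 6 and 11 without the circle that only A and B hold), 5, 2 and 5 with sh3-2 and 10, 1 and 12 in shCtr. A shorter member, chr11:65268334-65268664, shares the 3′ end of the abundant one and had 0 reads in all sh3-1 libraries, 0, 0 and 2 with sh3-2 and 5, 0 and 1 in shCtr.

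SLC38A1, a neutral amino acid transporter, hosted the next named circle (chr12:46655079-46655634, 556 bases). It had 10, 2 and 0 reads for sh3-1, 1, 0 and 2 for sh3-2 and 3, 2 and 1 for shCtr, so library A gave most of the sh3-1 reads. A 169-base circle of PROSER2 (chr10:11876281-11876449) had 8, 4 and 0 reads for sh3-1, 1, 2 and 3 for sh3-2 and 0, 0 and 1 for shCtr. With the looser filter its log2 fold change was 3.17 (SE 1.88) for sh3-1 and 2.60 (SE 1.97) for sh3-2 against shCtr (edgeR adjusted p 0.399 and 0.835). For the circle of MAP2K1, a MAP kinase kinase (chr15:66756111-66758732), the counts were 2, 2 and 0 with sh3-1, 2, 0 and 5 with sh3-2 and 2, 1 and 2 in shCtr, which overlap. The groups also overlap for the circles of HP1BP3, CRIM1, TTC28, SUCLG2-AS1, NAIP, CS and SMYD3, which had 12 to 18 reads each. The SMYD3 circle, from a methyltransferase gene, had reads in library A of each group only, 5 with sh3-1, 3 with sh3-2 and 4 in shCtr.

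**Figure D3:**
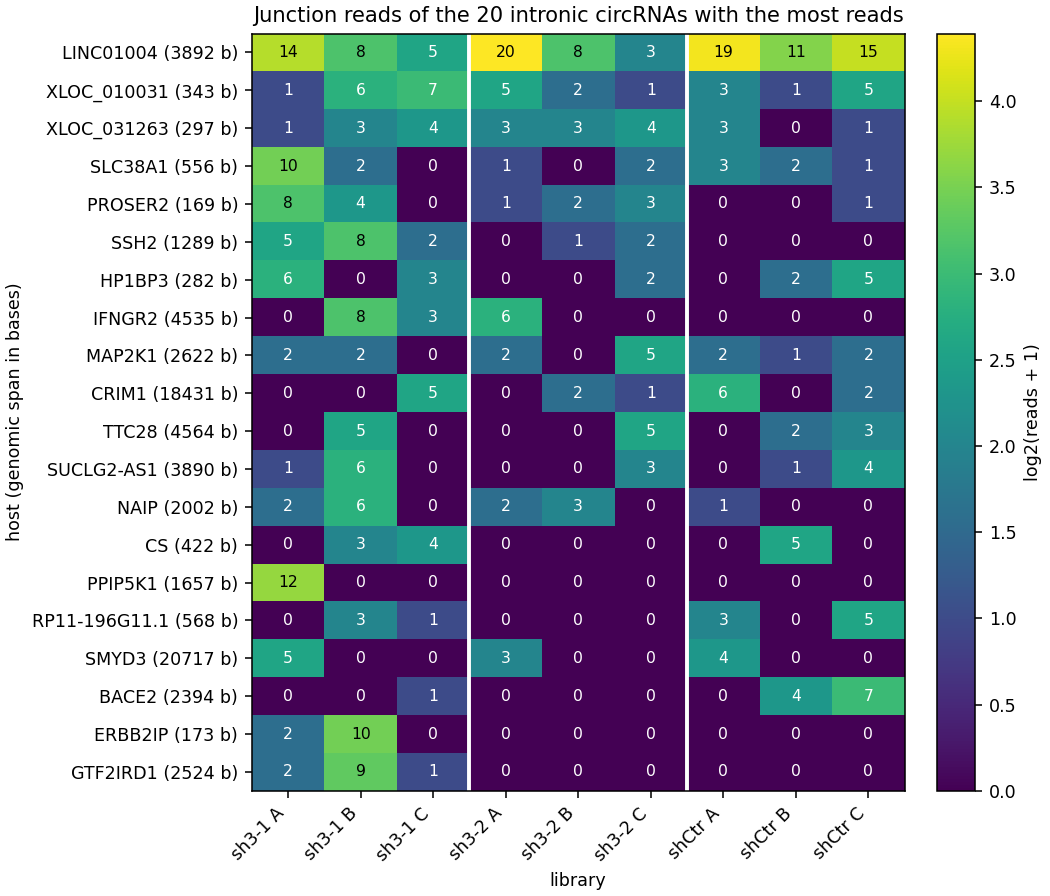
Junction reads (digits; colour is log2 of reads + 1) of the 20 intronic circRNAs with the most reads (rows, host and span in bases) in the 9 libraries (columns: sh3-1, sh3-2, then shCtr). LINC01004 has 3 to 20 reads in every library, and most other rows hold zeros in each group.

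Among the circles with reads under a hairpin and 0 in all 3 controls, that of SSH2, a phosphatase that activates the actin-severing protein cofilin (chr17:28180406-28181694, minus strand, 1289 bases), had 5, 8 and 2 reads with sh3-1, 0, 1 and 2 with sh3-2 and 0, 0 and 0 in shCtr. Each sh3-1 library lay above each control. Against a floor of 3 reads over the control group, its pooled sh3-1 reads, taken as exact, were at least 5.10-fold higher. That bound leaves out the spread among libraries. The circle's edgeR adjusted p for sh3-1 against shCtr with the looser filter was 0.396. Another SSH2 circle (chr17:28203618-28203865) had 2, 4 and 0 reads with sh3-1 and 0 in all other libraries. The 4 intronic SSH2 circles together had 9, 12 and 4 reads with sh3-1, 0, 1 and 4 with sh3-2 and 0, 0 and 0 in shCtr. Libraries A and B, the pair that shares circles, thus gave most of them, and sh3-1 C equalled sh3-2 C. Without the circle that only A and B hold, the sh3-1 libraries had 7, 8 and 4 reads.

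For the circle of IFNGR2, a chain of the interferon gamma receptor (chr21:34805457-34809991, 4535 bases), the counts were 0, 8 and 3 with sh3-1, 6, 0 and 0 with sh3-2 and 0, 0 and 0 in shCtr. A library of each hairpin group also held 0 reads, so the groups overlap. Circles of ERBB2IP, a scaffold at epithelial junctions that binds the receptor ERBB2 (chr5:65346622-65346794; 2, 10 and 0 reads with sh3-1), and of GTF2IRD1, a transcription factor (chr7:73960801-73963324; 2, 9 and 1), had 0 reads in all sh3-2 and shCtr libraries. Both took most of their reads from sh3-1 B, and the ERBB2IP circle is 1 of the 59 that only sh3-1 A and B hold. All 12 reads of the PPIP5K1 circle (chr15:43829642-43831298), from an inositol phosphate kinase gene, were in sh3-1 A. Each of these 3 had 12 reads. Pooled over the group, that was at least 4.08-fold above the control floor of 3 reads, again with the sh3-1 reads taken as exact. This bound leaves out the spread among libraries. The ERBB2IP circle had 0 reads in sh3-1 C, and the PPIP5K1 circle 0 in sh3-1 B and C.

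In the other direction, the circle of BACE2, a membrane protease (chr21:42591066-42593459), had 0, 0 and 1 reads with sh3-1, 0, 0 and 0 with sh3-2 and 0, 4 and 7 in shCtr. Pooled over the group, it was at least 2.54-fold lower with sh3-2 against a floor of 3 reads, with control reads taken as exact. That bound leaves out the spread among libraries (edgeR adjusted p 0.485 with the looser filter). A control library also had 0 reads, so the groups overlap. The circle of RP11-196G11.1 had 0, 3 and 1 reads with sh3-1, 0 in all sh3-2 libraries and 3, 0 and 5 in shCtr. All 7 reads of the MCU circle (chr10:74474869-74488119), from the gene of the mitochondrial calcium channel, and all 6 of the ZNF674 circle (chrX:46381402-46382560) were in shCtr B.

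The authors' deposited table puts 3 intronic circles at 2-fold or more and an unadjusted p under 0.05 in the higher direction with sh3-1 (SSH2, PPIP5K1 and IFNGR2), which is 0.399% of the 751 listed, against 0.385% of all 7021 circRNAs, and 0 in the lower direction, against 0.641%. For sh3-2 it gives 2 higher (IFNGR2 and PC, pyruvate carboxylase), 0.279% of 718 against 0.346% of all 6648, and 1 lower (BACE2), 0.139% against 0.331%. The higher-direction shares lie near those of all circRNAs and the lower-direction shares below them, on 0 and 1 circles, which was not tested. The smallest FDR of an intronic circle in the authors' deposited table was 0.512 for sh3-1 and 0.558 for sh3-2. The PC circle (chr11:66723551-66723809) had 8 reads, all in sh3-2 B. The ROR2 circle (chr9:94645540-94649395), from a receptor of Wnt signals, had 0, 0 and 1 reads with sh3-1, 1, 0 and 6 with sh3-2 and 0, 0 and 0 in shCtr (p = 0.0573, FDR 0.558 for sh3-2 in the authors' deposited table).

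By sign, 370 intronic circles were higher and 381 lower with sh3-1 in the authors' deposited table (49.3% higher, against 44.1% of all circRNAs), and 340 higher and 378 lower with sh3-2 (47.4% higher, against 41.8%). The median log2 fold change in the authors' deposited table was −0.25 for intronic and −0.98 for all circRNAs with sh3-1, and −1.26 for intronic and −1.52 for all circRNAs with sh3-2. Most of these circles have reads in a single library. By presence, 621 intronic circles (60.3%) had no control read, against 43.8% of exonic circles. The controls are only 3 of the 9 libraries, and 78.4% of intronic and 56.0% of exonic circles had reads in 1 library only. A circle seen in 1 library only has more hairpin than control libraries to fall in. The part of this in the difference was not tested. Reads in all 3 groups were found for 28 intronic circles (2.72%) and 12.5% of exonic ones. Intronic circles of a single group numbered 311 for sh3-1 (30.2%, against 22.5% of exonic circles), 278 for sh3-2 (27.0%, against 16.7%) and 325 for shCtr (31.6%, against 27.7%). Without the circles that only the 2 library pairs hold, these were 252 for sh3-1, 250 for sh3-2 and 325 for shCtr. Those were 26.8, 26.5 and 34.5% of the intronic circles left, against 19.7, 15.5 and 29.4% of the exonic ones. Then 534 intronic circles (56.7%) had no control read, against 40.3% of exonic ones. In the authors' deposited table the intronic circles left numbered 311 higher and 381 lower with sh3-1 (44.9% higher, against 41.0% of all circRNAs), and 312 higher and 378 lower with sh3-2 (45.2%, against 40.0%).

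The intronic class took a larger mean share of junction reads with each hairpin than in controls, but no difference passed the test. With 3 libraries a group, none of the 9 tests of per-library measures could reach an adjusted p under 0.05. The share was 9.41, 8.50 and 6.77% with sh3-1, 8.90, 8.26 and 8.43% with sh3-2, and 7.12, 6.34 and 6.80% in shCtr. The 95% Wilson interval of a single library spanned at its widest 8.63 to 10.3% for sh3-1 A and 8.04 to 9.84% for sh3-2 A. Each sh3-2 library lay above each control, while sh3-1 C lay among them. The means were 8.23 ± 1.34% with sh3-1 and 6.75 ± 0.389% in shCtr (SD, n = 3 each, exact two-sided permutation p = 0.3, adjusted p = 0.386). For sh3-2 the mean was 8.53 ± 0.332%, against the same controls (exact p = 0.1, the smallest that 3 against 3 allow, adjusted p = 0.225 over 9 tests). Between sh3-2 and sh3-1 the exact permutation p was 0.9. Without the circles that only the 2 library pairs hold, the sh3-1 mean was 7.42 ± 1.05% and the sh3-2 mean 8.21 ± 0.607%, so the difference from shCtr was 0.67 points for sh3-1, less than its 1.48 points with them, and 1.45 points for sh3-2. In bulk libraries a higher share of a class and less RNA of the other classes cannot be told apart, nor can fewer cells with a circle and less of it per cell.

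Counted as circles, 180, 163 and 160 intronic junctions were detected with sh3-1, 142, 136 and 163 with sh3-2 and 161, 145 and 143 in shCtr. Per 1000 junction reads this was 30.7 ± 4.60 with sh3-1, 37.7 ± 1.66 with sh3-2 and 26.7 ± 2.39 in shCtr (exact permutation p = 0.3 for sh3-1 and 0.1 for sh3-2 against shCtr, adjusted p 0.386 and 0.225). The sh3-2 libraries hold fewer reads, and this ratio moves with depth. With every library thinned to 3731 reads, the difference from shCtr fell to 3.20 circles per 1000 for sh3-2 (exact permutation p = 0.3), against 10.99 as counted, and was 4.43 for sh3-1 (exact permutation p = 0.2), against 4.03 as counted. The sign of sh3-2 against sh3-1 turned, to −1.23 thinned, against 6.96 as counted. Without the circles that only the 2 library pairs hold, the means as counted were 25.8 ± 3.27 with sh3-1, 35.01 ± 2.11 with sh3-2 and 26.7 ± 2.39 in shCtr, so sh3-1 then lay 0.86 below shCtr (a difference of −0.86).

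The share of intronic reads in circles seen in 1 library only was 52.1, 35.3 and 72.7% with sh3-1, 67.2, 58.1 and 57.1% with sh3-2 and 73.4, 70.4 and 72.9% in shCtr. The low values are those of the library pairs that share circles. The means of 53.4 ± 18.7% with sh3-1 and 60.8 ± 5.55% with sh3-2 lay below 72.2 ± 1.63% in shCtr without passing the test (exact permutation p = 0.2 and 0.1, adjusted p 0.36 and 0.225). Counting the circles that only those pairs hold as seen in 1 library, which can only raise the hairpin values and leaves shCtr as it is, the means were 71.1 ± 1.37% with sh3-1, 70.5 ± 4.31% with sh3-2 and 72.2 ± 1.63% in shCtr.

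**Figure D4:**
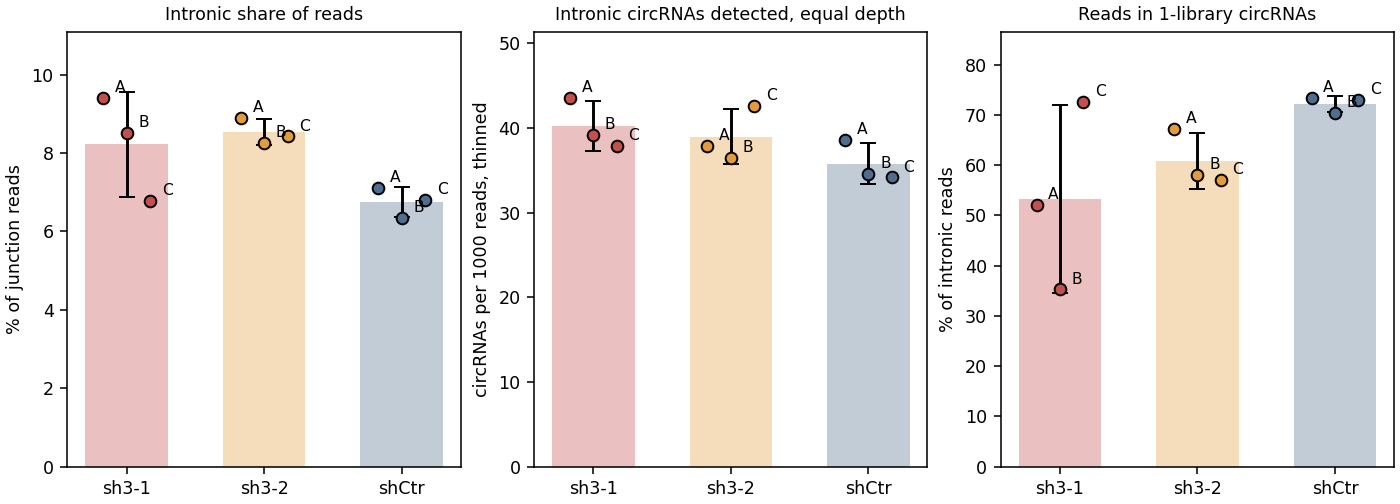
Intronic share of junction reads (left), intronic circRNAs detected per 1000 reads with each library thinned to 3731 reads (middle) and share of intronic reads in circRNAs seen in 1 library only (right), by group (x axis). Points are libraries A to C, bars are means and error bars are SD of 3 libraries; in the left panel the sh3-2 libraries, 8.26 to 8.90%, lie above the controls, 6.34 to 7.12%, and sh3-1 C lies among the controls.

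Circles of up to 400 bases held 29.0 ± 1.00% of intronic reads with sh3-1, 30.1 ± 4.85% with sh3-2 and 23.6 ± 5.64% in shCtr, and the ranges of the groups overlap. Circles above 2000 bases held 37.1 ± 4.56% with sh3-1, 38.5 ± 4.26% with sh3-2 and 44.1 ± 2.05% in shCtr. There each control library (42.3 to 46.3%) lay above each hairpin library (33.5 to 42.2% with sh3-1, 33.8 to 42.1% with sh3-2), by a narrow gap, and the same held without the circles of the 2 library pairs (35.9 to 42.2% with sh3-1, 32.5 to 41.8% with sh3-2, controls as before). These shares were set by span classes chosen after the data were seen and were not tested.

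AHNAK, a giant scaffold protein of the cell cortex with a central region of repeated units, hosted the most intronic circles, 10, and no exonic ones. Together they had 12, 0 and 2 reads with sh3-1, 5, 9 and 2 with sh3-2 and 3, 4 and 0 in shCtr, which overlap (exact permutation p = 0.9 and 0.3 against shCtr). They lie within 12241 bases of chromosome 11 on the minus strand, and the class was set against transcript ENST00000530124. The spans of all 10 are multiples of 3 bases, against 34.4% of all intronic circles. There were 3 circles of 384 bases, 3 of 222, and single ones of 180, 201, 405 and 2382. A span of 384 bases is 128 codons. The best supported were chr11:62290555-62290776 (4, 0 and 0 reads with sh3-1, 2, 1 and 2 with sh3-2, 0 in shCtr) and chr11:62288580-62288801 (6, 0 and 0 reads with sh3-1, 1, 0 and 0 with sh3-2, 0 in shCtr), both of 222 bases. The one at 62288580 abuts the 180-base circle chr11:62288400-62288579, whose 3 reads were all in shCtr A.

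A second locus with stepped spans was XLOC_031263, an unnamed transcript model on chromosome 19. Its 3 circles on the minus strand span 297, 396 and 693 bases, each a multiple of 99, and the 297-base and 396-base circles abut to fill the 693-base one. The 297-base circle, chr19:4511919-4512215, had 1, 3 and 4 reads with sh3-1, 3, 3 and 4 with sh3-2 and 3, 0 and 1 in shCtr. The 396-base circle had 1, 2 and 1 reads with sh3-1, 2, 1 and 3 with sh3-2 and 0 in all controls. Summed, the locus had 2, 5 and 8 reads with sh3-1, 5, 5 and 7 with sh3-2 and 3, 0 and 1 in shCtr. Each sh3-2 library lay above each control. In reads per 1000 this was 0.889 ± 0.506 with sh3-1, 1.45 ± 0.219 with sh3-2 and 0.239 ± 0.279 in shCtr (exact permutation p = 0.2 and 0.1 against shCtr, adjusted p 0.733 and 0.471 over 33 tests of 11 hosts). The same 297 bases were also reported on the opposite strand with 2 reads, as antisense to PLIN4, a lipid droplet coat protein whose coding sequence is itself a run of tandem repeats. The intronic circles thus lie on the strand that the sheets take for PLIN4. Only 1 other intronic circle, of NPIPL1, had such an opposite-strand twin.

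**Figure D5:**
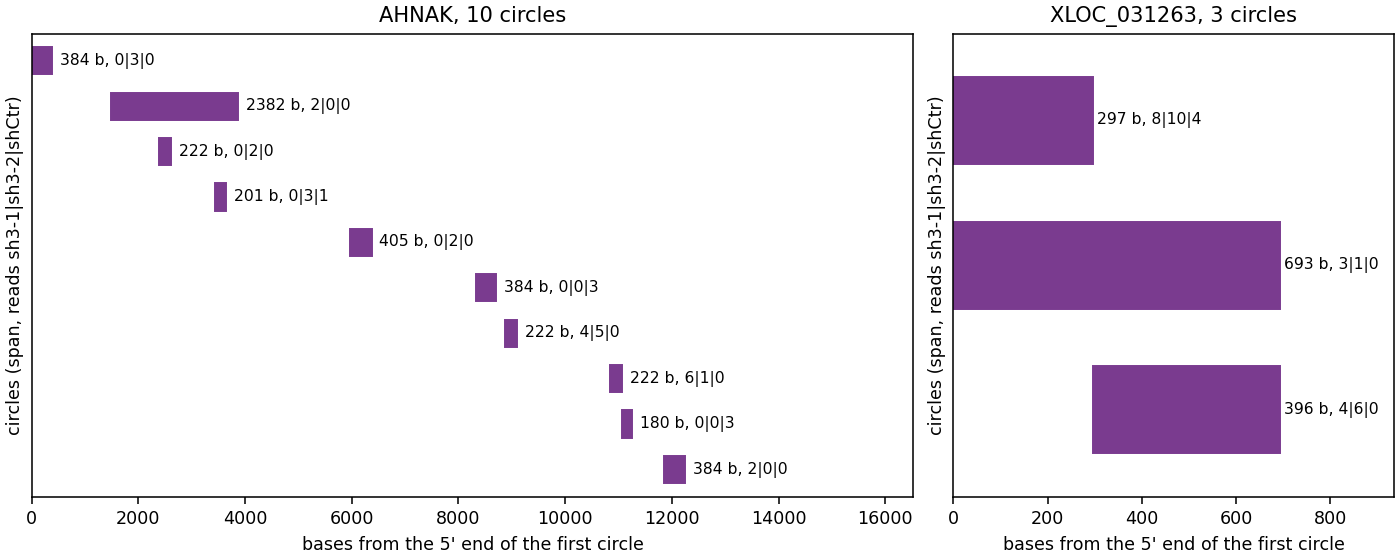
Intronic circles (bars) of AHNAK and XLOC_031263, placed by distance in bases from the 5′ end of the first circle (x axis); labels give the span and the reads summed over 3 libraries of sh3-1, sh3-2 and shCtr. AHNAK holds 3 circles of 384 and 3 of 222 bases, and the XLOC_031263 circles of 297 and 396 bases abut within that of 693.

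Spans in steps were also found at zinc finger genes. A C2H2 zinc finger and its linker, the unit these DNA-binding proteins repeat, take 28 codons, or 84 bases. Of 30 intronic circles whose host is named ZNF, 12 (40%) from 10 hosts span a multiple of 84 bases, against 13 of the other 999 intronic circles (1.30%). None of the 75 exonic ZNF circles does, and 1.31% of other exonic circles do. The 12 span 168, 252, 504 or 588 bases, that is 2, 3, 6 or 7 units. They include ZNF714 (chr19:21300197-21300364, 168 bases, 4 reads, all in shCtr A), ZNF84 (chr12:133635309-133635476, 168 bases, 4 reads, all in sh3-2 B) and ZNF83. At ZNF83 2 circles of 504 bases overlap with an offset (chr19:53116704-53117207 and chr19:53116762-53117265), with 2 reads in shCtr A and 5 in sh3-1 C. Each of the 12 was seen in 1 library only. In all they held 12 reads with sh3-1, 10 with sh3-2 and 11 in shCtr. This was looked for after the spans had been seen and is given as a description. Chromosome 19, where 15 of the 30 lie, had the highest share of intronic circles, 54 of 165 (32.7%), and chromosome 18 the lowest of those with more than 1 circle, 12 of 207 (5.80%).

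Other hosts with several intronic circles differed in how those circles are laid out. The host named MIR548AE2 had 7 circles on chromosome 16 (plus strand), of which 4 share an end with exonic circles of LONP2, a peroxisomal protease. RefSeq (GRCh38.p14) places MIR548AE2 on chromosome 5 and LONP2 on chromosome 16, so the deposited host name does not mark the gene of that locus. Its 7 circles had 0, 0 and 1 reads with sh3-1, 1, 0 and 0 with sh3-2 and 2, 7 and 9 in shCtr. Every control library lay above every hairpin library. Per 1000 reads this was 0.0588 ± 0.102 with sh3-1, 0.0870 ± 0.151 with sh3-2 and 1.06 ± 0.619 in shCtr (SD, n = 3 each), with the smallest possible exact permutation p of 0.1 for each hairpin against shCtr (adjusted p 0.471 over 33 tests). The 2 hairpins were set against the same controls.

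PDE3A and PDE4D, which encode phosphodiesterases that break down cyclic AMP, had 7 and 5 intronic circles, none shared by more than 2 libraries. PDE3A had 1, 4 and 2 reads with sh3-1, 2, 3 and 1 with sh3-2 and 4, 2 and 0 in shCtr (0, 0 and 2 with sh3-1 and 2, 1 and 0 with sh3-2 without the circles of the pairs), and 10 exonic circles with 81 reads. For PDE4D the counts were 3, 2 and 0 with sh3-1, 0 in all sh3-2 libraries and 0, 2 and 4 in shCtr. In both genes the groups overlap. SPTSSA, a small subunit of serine palmitoyltransferase, the entry enzyme of sphingolipid synthesis, had 4 intronic circles and no exonic one. They gave 0, 0 and 2 reads with sh3-1, 5, 2 and 3 with sh3-2 and 0, 1 and 0 in shCtr, and 3 of them share the end at position 34907307 of chromosome 14. The sh3-2 libraries lay above all controls (exact permutation p = 0.1, adjusted p 0.471). ARIH2, a RING ubiquitin ligase, had 2, 2 and 3 reads with sh3-1, 0, 0 and 4 with sh3-2 and 0 in all controls. Without the ARIH2 circle that only sh3-1 A and B hold, the sh3-1 libraries had 0, 0 and 3 reads and overlap the controls. NEDD4, a HECT ubiquitin ligase, had 3, 3 and 0 reads with sh3-1 (0 in all 3 without the circle that only A and B hold), 0, 6 and 0 with sh3-2 and 0, 0 and 4 in shCtr, which overlap. MYO1E, a membrane-bound myosin, had 4, 2 and 0 reads with sh3-1, 0 in all sh3-2 libraries and 2, 0 and 3 in shCtr. No host passed in any of the 33 tests, and none could at an adjusted p under 0.05 with 3 libraries a group.

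The ends of intronic circles were set against those of all other circles. Of the 1029, 75 (7.29%) shared their 5′ or 3′ end with another intronic circle and 63 (6.12%) with a circle of another class, 52 of them exonic. Of the exonic circles 2873 (47.2%) shared an end with another exonic circle. Exonic circles are the larger class, and the part of that in the difference was not tested. In 13 cases the end was shared with circles of a different host name only, among them MALAT1 for XLOC_010031, LONP2 for MIR548AE2, NEAT1, TEAD1, HELLS and FAM120B. The circle of RP11-84A19.4 (2 reads) shares an end with an exonic circle of PTP4A2 with 62 reads. In all 169 intronic circles (16.4%) lie inside the span of a circle of another class on their strand. Of the 827 hosts 374 (45.2%) also had an exonic circle and 692 had a single intronic one. Of the 771 hosts matched by symbol to RefSeq, 94.9% are protein-coding and 2.85% long noncoding RNA genes, against 98.5% and 0.537% of the matched hosts of exonic circles.

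Host lists by gene function were described without a test. Hosts of intron circles described in other human cells (ANKRD52, SIRT7 and MCM5) had no circle of any class here. Of 35 genes of splice site and branch point recognition and lariat turnover, DBR1 included, none had an intronic circle, while 16 had 26 circles of other classes with 103 reads. Of 22 m6A writers, erasers and readers only YTHDF3 had one, with 2 reads in sh3-1 A. Of 31 actin and membrane skeleton genes 7 had 16 intronic circles with 17 reads in sh3-1, 24 in sh3-2 and 11 in shCtr, 10 of the circles from AHNAK. Translation factors (5 of 31 genes) had 8 circles with 0 reads in sh3-1, 12 in sh3-2 and 10 in shCtr, 3 of the circles from EIF4G3, a scaffold of translation initiation. Interferon receptor and JAK-STAT genes (3 of 20) had a single circle each, for IFNGR2, IFNGR1 (5 reads, all in sh3-1 B) and LIFR (3 reads, all in shCtr A), and held 16 reads in sh3-1, 6 in sh3-2 and 3 in shCtr. Of 40 squamous keratin and cell junction genes only CTNNA1 and EGFR had intronic circles, 4 with 0 reads in sh3-1, 7 in sh3-2 and 4 in shCtr. Circles of any class numbered 44 on the actin list, 37 on the translation list and 19 on the interferon and JAK-STAT list. They numbered 14 on the squamous list and 33 on the m6A list. Over all hosts, 1029 of the 8673 non-mitochondrial circles were intronic. No member of these lists passed the main filter. With the looser filter the IFNGR2 circle entered the fit of sh3-1 against shCtr (edgeR adjusted p 0.396), and it and 2 AHNAK circles entered that of sh3-2 against sh3-1 (edgeR adjusted p 0.725 to 0.997). Without the circles that only the 2 library pairs hold, the actin list had 14 reads with sh3-1 and the translation list 9 with sh3-2, and the other counts of these lists were the same.

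MeRIP-seq, which sequences RNA pulled down with an antibody to m6A, was run on sh3-2 and shCtr cells in 12 libraries. For this comparison of sh3-2 with shCtr, the authors' deposited table lists 820 m6A sites on 263 of the 1029 intronic circles (25.6%). The share of circles with a site is not given here for other classes, so 25.6% cannot be called high or low. Of the 820 sites 82 (10%) have an FDR under 0.05 in either direction, against 1340 of all 14885 sites (9.002%). The intronic share thus lies near that of all sites, and the difference was not tested. Of the 82 sites 41 are higher and 41 lower, and of all 14885 sites 4.47% are higher and 4.53% lower at this FDR. The 82 include higher sites on 3 AHNAK circles, such as one spanning chr11:62299267-62299650 (1.26-fold, FDR 3.35e-05 in the authors' deposited table). In the circRNA-seq libraries that circle had 3 junction reads, all in sh3-2 B. The circle chr11:62295775-62298156 had 2, all in sh3-1 A, and chr11:62290944-62291327 had 3, all in shCtr B. Whether linear RNA of the same bases gave the m6A signal was not tested.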

How the data were processed

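Per the file headers, the authors' deposited sheets hold unnormalized counts (reads across each back-splice junction, by library) and, per hairpin, a log2 fold change, a p-value and an FDR. The 24 columns of log2 CPM in the deposited sheets were not used. The deposited m6A sheets give each site a fold (ratio), p-value and FDR, and the authors also list a predicted length, which equals the genomic span for 100% of intronic circles. The build hg19 and the tools STAR 2.5.1b, cutadapt 1.9.3 and edgeR 3.16.5 are named per the submitters' processing notes. For the circRNA caller, the name was not given in the sources used here. Coordinates, strand, class and host are the authors', in hg19.

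Sheets were joined by circRNA, and a circRNA absent from a hairpin's sheets was given 0 reads. Counts were fitted over all classes with edgeR 4.0.16 (quasi-likelihood, robust, TMM, filterByExpr defaults, R 4.3.3, with DESeq2 1.42.0 as alternative) and Benjamini-Hochberg adjusted. The edgeR fit was tested on simulated data of a raised depth, at which most circRNAs pass the filter. That run does not show how the fit performs at the depth of these libraries. Shares used non-mitochondrial junction reads and exact two-sided permutation tests (scipy 1.17.1). Alternatives were other filters, library sizes, sums per host and class, thinned libraries, left-out libraries and a replicate block. PCR copies were not separated, so Wilson intervals and floors of 3 counts hold counting error alone. Named circles are the 20 with most reads, those in at least 8 libraries, those that passed the filter, the 3 higher and 3 lower per hairpin with the smallest p of the authors, and the circles of the 10 hosts with most circles; others named were chosen after their values were seen. The members and lists were chosen with earlier results of these data known. Sequences at the circle ends were not analysed here. Whether a shared library letter pairs the samples was not settled. Correlations between libraries of different groups were −0.12 to 0.39 for the same letter and −0.34 to 0.16 for other letters, over 36 circRNAs. The ranges overlap, and the highest values were those of same-letter libraries. The main fits and tests did not pair the libraries.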

Additional observations from a re-analysis of the deposited data

Results flagged for a closer look

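Intronic junctions on the mitochondrial chromosome had more reads with both hairpins than in controls. They are left out of the intronic class and of the per-library measures above, but not of the counts given to the fits over all circRNAs. The 17 junctions held 34 reads with sh3-1 (10, 10 and 14), 44 with sh3-2 (24, 6 and 14) and 14 in shCtr (4, 8 and 2). The libraries overlap between sh3-2 and shCtr. No test was made of these sums.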

How the results depend on the processing

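Over 23 results, 226 of 241 alternative values kept their direction and their side of the threshold. For the per-library measures, 3 libraries against 3 allow no exact p under 0.1, so only their direction could change. A count of circRNAs called was kept where it stayed at 0. The tally is therefore no measure of how firm the results are. With only circRNAs of at least 2 libraries or 3 reads, sh3-2 against sh3-1 became −0.40 points for the intronic share and −0.46 points for the reads in 1-library circles. Thinning gave −1.23 circles per 1000 for sh3-2 against sh3-1, where 6.96 was counted and 5.57 to 9.62 with each library left out. In settings added after the data were seen, leaving out the circles held only by sh3-1 A and B or sh3-2 B and C gave −0.86 circles per 1000 for sh3-1 against shCtr, and counting them as seen in 1 library, which by construction raises the hairpin values only, gave −0.63 points for sh3-2 against sh3-1. The strand difference passed with circles of at least 2 reads (−2.84 points, exact permutation, adjusted p 0.0273). In the edgeR fits, 1 circRNA, not intronic, was called for sh3-2 against shCtr with the filter of 6 reads and with sums per host and class. The cause was not tested.

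With each library left out in turn, the share of intronic reads ranged over 0.89 to 2.21 points for sh3-1 against shCtr, 1.57 to 1.96 for sh3-2 against shCtr and −0.43 (without sh3-1 C) to 0.89 for sh3-2 against sh3-1. Reads in 1-library circles ranged from −1.61 (without sh3-1 B) to 17.1 points for sh3-2 against sh3-1, and the strand difference from −2.87 (without sh3-1 A, exact permutation, adjusted p 0.0469) to −1.51 points. The calls for sh3-2 against sh3-1 ranged from 0 to 1 (without sh3-2 A). LINC01004 ranged from −0.98 to 0.33 (0.17 without shCtr A) for sh3-2 against shCtr and from −0.32 to 1.14 for sh3-2 against sh3-1. A replicate block by library letter was also tried, although the check of pairing did not settle whether letters pair the samples. With it edgeR called 0 circRNAs in each comparison, and LINC01004 had log2 values of −0.84, −0.29 and 0.57. The intronic share then differed from shCtr by 1.77 points for sh3-2 (exact permutation p = 0.25, the smallest possible with 3 pairs). The median intronic circle had 3 reads, and 1028 of 1029 did not pass the main filter.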
